A study of Mus musculus with 6 samples.

Results

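The PTHrP and Indian hedgehog axis is the feedback loop by which growth plate cartilage sets how long its chondrocytes proliferate. The axis was taken as 9 listed genes, and its members were all probe sets that the annotation of the Mouse Genome 430 2.0 array assigns to them. There were 18 such probe sets among the 45101 of the deposited table, and they covered 8 of the 9 genes. The annotation used here assigned no probe set to Pthlh, the gene of PTHrP, so its expression is not analysed here. Of the 18 probe sets, Pth1r, Ihh and Gli1 had 1 each, Gli2 had 2, Ptch1, Smo and Gli3 had 3 each and Hhip had 4.

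In the growth plate, Indian hedgehog (Ihh) is secreted by prehypertrophic chondrocytes and acts on neighboring chondrocytes and perichondrium through the receptor Patched 1 (Ptch1). Ligand binding relieves the block of Ptch1 on Smoothened (Smo), and the zinc finger transcription factors Gli1, Gli2 and Gli3 then alter transcription of hedgehog targets, of which Ptch1, Gli1 and the decoy receptor Hhip are used as readouts. Hedgehog signaling also maintains PTHrP at the end of the bone, and PTHrP acts through its G protein-coupled receptor Pth1r to hold chondrocytes back from hypertrophy.

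RNA came from primary chondrocytes of Slc39a13-KO mice (3 arrays) and of wild-type mice (3 arrays), and no treatment is described for either group. Slc39a13 encodes the zinc transporter ZIP13. In the KO line a neomycin cassette replaced a stretch of exons with a motif conserved in this transporter family, in all cells of the animal, and the strain of the mice behind these arrays is not given in the sources used here. The cells were released by collagenase from rib cages of newborn mice and cultured without a described sort, and no source says whether the 3 arrays of a group came from separate mice or cultures. All p-values therefore rest on the spread between arrays, and part of that spread may be technical. Sex-linked genes, given below, differed within each group, so the arrays of a group did not all come from the same mouse.

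Each array has 1 signal per probe set, on a linear and not a log scale, with a median over probe sets of 82.0 to 108 on KO arrays and 80.7 to 88.4 on wild-type arrays. The probe set of Slc39a13 had signals of 100, 196 and 165 on KO arrays, against 901, 1081 and 991 on wild-type arrays. Whether it lies in the deleted stretch is not known here. KO replicate 1 stood apart, with correlations of 0.940 to 0.950 with the other arrays, which correlated at 0.960 to 0.980 among themselves. By Xist and Y-linked genes, KO replicate 2 and wild-type replicate 3 differed in sex from the other 4 arrays, so both groups mix sexes. All 15 chondrocyte markers searched, such as Acan, Comp and Col9a1, were tested, with a summed signal of 182007 to 251809 on KO arrays and 134619 to 159146 on wild-type arrays.

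Groups were compared as log2(signal + 7.96), a scale that understates changes of dim probe sets, with limma across all 23294 probe sets with 1 gene and a mean log2 value of at least 5.80. A probe set was called where its p, after Benjamini-Hochberg adjustment over all of these, was under 0.05. Over all tested probe sets 802 (3.44%) were called higher in KO chondrocytes and 785 (3.37%) lower, or 131 and 259 when each array was centred on its median. Of the 13 member probe sets above this filter, 1 was higher (7.69%), none was lower and 12 did not pass, with a median log2 fold change of 0.07 against 0.01 over all tested probe sets. The 1 was that of Pth1r, and 4 of the 13, against 5266 of all 23294, had an unadjusted p under 0.05.

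**Figure D1:**
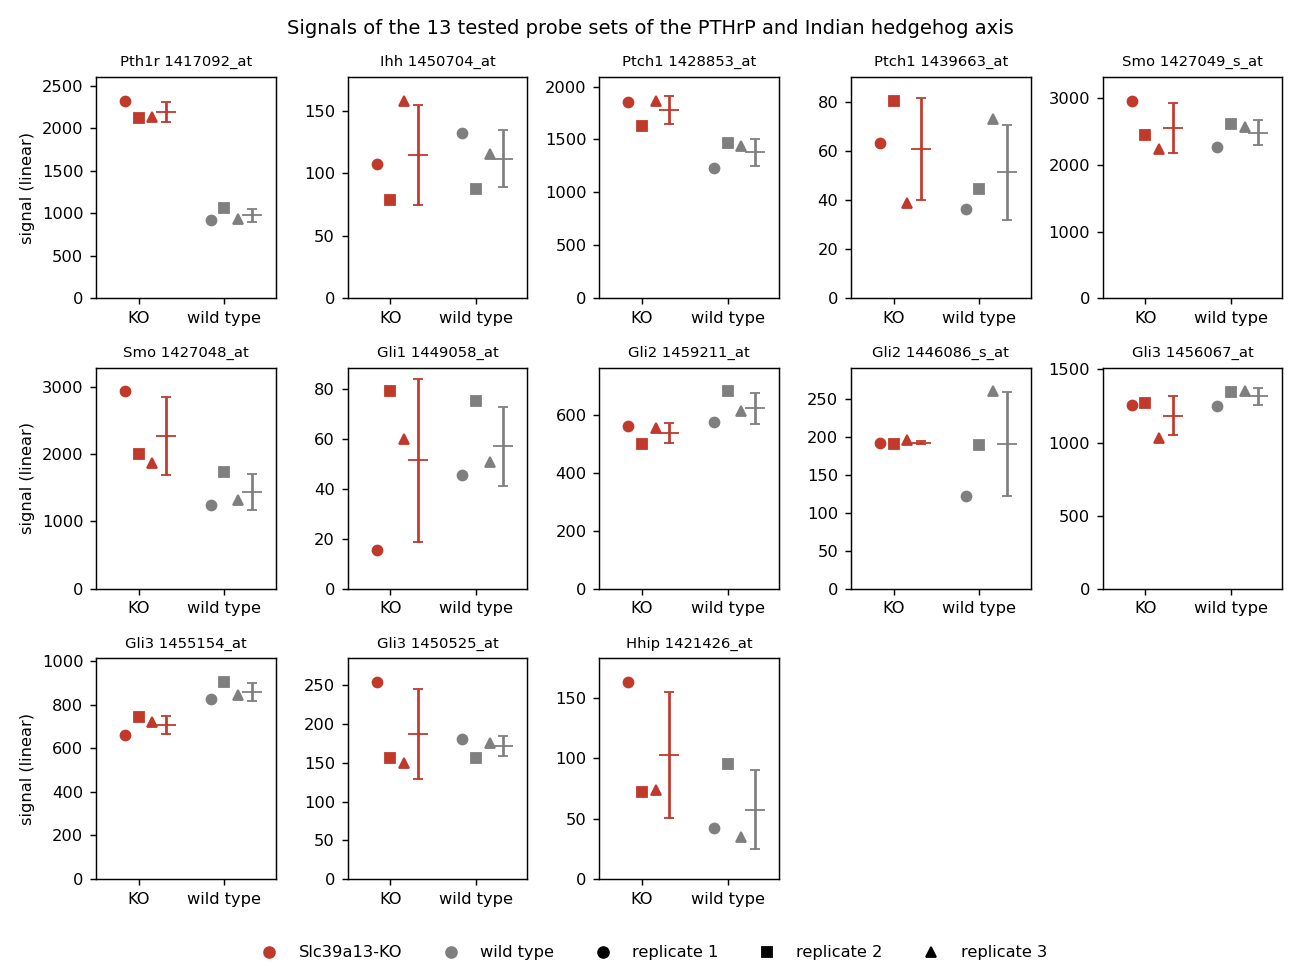
Signals (linear scale, y axis from 0) of the 13 tested probe sets on 3 Slc39a13-KO arrays (red, left) and 3 wild-type arrays (gray, right), with marker shapes for replicates and the mean and SD of each group as a bar. The KO arrays lie well above the wild-type arrays for Pth1r (1417092_at), while for Ihh, Gli1 and Hhip the groups overlap.

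Pth1r, the receptor of PTHrP and of parathyroid hormone on chondrocytes and osteoblasts, was 2.25-fold higher in Slc39a13-KO chondrocytes. Its only probe set (1417092_at) had signals of 2325, 2127 and 2130 on the KO arrays, against 923, 1067 and 931 on the wild-type arrays. Every KO signal thus lay far above the highest wild-type signal, and the arrays of each group lay close together. The mean was 2194 ± 113 (SD, n = 3) in KO and 974 ± 81.0 (SD, n = 3) in wild-type chondrocytes. The log2 fold change was 1.17 (standard error 0.09, 95% interval 0.96 to 1.38, adjusted p = 0.000530 from limma). It was called under each of 21 other settings, with log2 fold changes of 1.07 to 1.23. Without KO replicate 1 it was 1.13 (adjusted p = 0.000587), with sex as a covariate 1.17 (adjusted p = 0.000969) and on the 4 arrays with low Xist alone, 2 per group, 1.16 (adjusted p = 0.0186).

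The annotation gives Pth1r 3 transcription start sites, and this probe set gives 1 value per array for the gene and does not tell their transcripts apart. The RefSeq sequences around these starts (GRCm38.p6, 250 bases before to 50 after each start) are shown because Pth1r was the member that was called, and that of Hhip because it alone among the members held a motif searched for. Both strands were searched for GACCACCCA, the binding motif of Gli proteins, and for TGACGTCA, the cyclic AMP response element, which reads the same on both strands. The motifs did not overlap in these windows, since no member window held the first. Of 32851 promoter windows of the same length, 83 (0.253%) held the first and 588 (1.79%) the second. Among the 10 windows of 8 members (Gli1 had none in the table) the response element was found once, 75 bases before the start of Hhip, where it is in capitals.
Pth1r start A, chr9:110747096-110747395, minus strand: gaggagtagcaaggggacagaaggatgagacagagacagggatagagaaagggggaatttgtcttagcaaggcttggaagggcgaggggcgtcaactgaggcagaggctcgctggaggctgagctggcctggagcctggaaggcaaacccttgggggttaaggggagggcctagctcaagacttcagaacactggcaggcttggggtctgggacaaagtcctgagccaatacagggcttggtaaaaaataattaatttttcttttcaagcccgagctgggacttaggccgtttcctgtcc
Pth1r start B, chr9:110743637-110743936, minus strand: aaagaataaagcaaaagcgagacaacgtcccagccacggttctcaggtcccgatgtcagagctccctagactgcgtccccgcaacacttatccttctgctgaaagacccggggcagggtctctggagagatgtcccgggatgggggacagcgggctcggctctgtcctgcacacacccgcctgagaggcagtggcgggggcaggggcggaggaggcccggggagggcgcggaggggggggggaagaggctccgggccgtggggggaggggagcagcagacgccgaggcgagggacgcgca
Pth1r start C, chr9:110742561-110742860, minus strand: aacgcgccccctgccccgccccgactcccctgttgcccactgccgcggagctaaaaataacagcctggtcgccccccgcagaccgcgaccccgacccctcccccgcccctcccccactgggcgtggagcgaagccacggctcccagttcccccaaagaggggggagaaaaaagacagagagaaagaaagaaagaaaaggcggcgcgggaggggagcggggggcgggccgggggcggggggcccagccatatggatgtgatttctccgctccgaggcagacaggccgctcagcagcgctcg
Hhip, chr8:80057959-80058258, minus strand: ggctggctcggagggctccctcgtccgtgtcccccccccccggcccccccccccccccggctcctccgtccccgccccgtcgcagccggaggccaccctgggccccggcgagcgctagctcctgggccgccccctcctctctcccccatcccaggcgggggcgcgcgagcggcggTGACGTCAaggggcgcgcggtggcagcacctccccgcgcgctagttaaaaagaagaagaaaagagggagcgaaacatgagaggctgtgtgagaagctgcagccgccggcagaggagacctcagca
These matches are of letters only, and no binding was measured in these cells.

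By pattern over the 6 arrays, the genes most like Pth1r were Tmem86a, Lsp1 and Panx3, with a root mean square difference between centred log2 profiles of 0.11, 0.12 and 0.12. Panx3, a channel-forming pannexin of prehypertrophic and hypertrophic chondrocytes, had signals of 2937, 2858 and 2815 in KO and 1266, 1684 and 1471 in wild-type chondrocytes. Tmem86a, which encodes a membrane protein, had 879, 844 and 716 in KO and 338, 329 and 329 in wild-type chondrocytes. Lsp1, which encodes an actin-binding protein of leukocytes, had 2065, 2013 and 1960 in KO and 672, 899 and 790.1 in wild-type chondrocytes. For all 3 genes the KO and wild-type arrays were apart, which follows from their choice by likeness to Pth1r. These genes are listed for the shape of their profile over 6 arrays only.

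In bulk RNA a change in the number of cells of a type and a change of RNA per cell cannot be told apart, and marker lists of several cell types moved on the same arrays as Pth1r. Over all 12715 genes, by the brightest probe set of each, 3.97% were higher and 3.92% lower. Of 14 tested markers of mesothelial cells, which line the chest cavity, 11 were lower and none was higher in KO chondrocytes, with a summed signal of 1226 to 2220 on KO arrays and 6473 to 10524 on wild-type arrays. Krt19, Msln, Upk3b and Gpm6a among them had log2 fold changes of -3.60, -3.09, -3.09 and -2.65. Of 4 tested osteoblast markers 3 were higher and none was lower (10921 to 16629 on KO arrays, 6901 to 9688 on wild-type arrays). They were Ibsp (1.07), Alpl (0.76) and Col1a1 (0.69), while Sp7 did not pass. The osteocyte genes Phex and Dmp1 lay under the filter. Ibsp and Alpl are also on the list of growth plate zone genes below, and Col1a1 is also on the fibroblast list. Another probe set of Col1a1 had 0.22 and did not pass (adjusted p = 0.237 from limma). Of 13 tested fibroblast and perichondrium markers 7 were higher and 2 lower (80636 to 100104 on KO arrays, 57253 to 68732 on wild-type arrays), with Lum at 0.64, Fbln2 at 0.60 and Col1a2 at 0.59. Of the 15 chondrocyte markers 5 were higher and 1 lower, with Acan and Col11a2 at 0.91, Comp at 0.76 and Col9a1 at 0.53. The genes named from the fibroblast and chondrocyte lists are the called ones with the largest change, all of them higher. Log2 fold changes above 0 were found for 11 of the 15 chondrocyte and 10 of the 13 fibroblast markers. Of 8 tested skeletal muscle genes 1 was higher and 1 lower (Tnnt3 at 1.17, Acta1 at -0.72). Only 1 of these 8 had a log2 fold change above 0, and their median was -0.61. None of 7 macrophage genes passed by limma (C1qb at 1.54 with adjusted p = 0.112, Cd14 at -1.55 with adjusted p = 0.0509), nor did the 1 tested endothelial gene (Kdr at 0.26). The summed signals of the macrophage genes were 693 to 1073 on KO arrays and 679 to 880 on wild-type arrays, those of muscle 2470 to 2931 and 2314 to 2583, and Kdr had 71.8 to 146 on KO arrays and 59.4 to 118 on wild-type arrays. The part of these cells in the change of Pth1r was not tested.

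Ihh, the ligand of the loop, had signals of 108, 79.0 and 158 on the KO arrays, against 133, 87.2 and 116 on the wild-type arrays. The groups overlapped, and the highest and the lowest of the 6 signals were both on KO arrays. Means were 115 ± 40.2 (SD, n = 3) in KO and 112 ± 23.1 (SD, n = 3) in wild-type chondrocytes. The log2 difference by limma was 0.0038 with a standard error of 0.32 (adjusted p = 0.996). Its 95% interval reached from 0.615-fold to 1.64-fold, so a change of Ihh within these limits is not excluded.

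Ptch1, both the receptor of Ihh and a target of the pathway, had a brightest probe set (1428853_at) with signals of 1849, 1627 and 1865 on the KO arrays, against 1229, 1467 and 1438 on the wild-type arrays. The KO arrays lay above the wild-type arrays, with no overlap. Means were 1780 ± 133 in KO and 1378 ± 130 in wild-type chondrocytes (SD, n = 3 each). The log2 fold change of 0.37 (standard error 0.10, 95% interval 0.14 to 0.60) had an adjusted p = 0.0590 from limma and so did not pass. With the brightest probe set of each gene tested alone, over 12715 genes, the same difference had an adjusted p = 0.0444, and with a filter at the 60th percentile 0.0460. The dimmer probe set 1439663_at had 63.3, 80.5 and 38.7 on KO arrays and 36.2, 44.5 and 73.3 on wild-type arrays, with overlap. The remaining one, 1450824_at, lay under the filter, with 65.9, 69.7 and 38.9 on KO arrays and 15.6, 18.4 and 50.3 on wild-type arrays, also with overlap.

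Smo, the transmembrane protein that passes the hedgehog signal on, had 2 bright probe sets, 1 with its groups apart and 1 with overlap. The probe set 1427048_at had signals of 2930, 2004 and 1866 on the KO arrays, against 1246, 1737 and 1315 on the wild-type arrays. Its KO arrays were all above its wild-type arrays, with KO replicate 1 the highest. Its log2 fold change was 0.65 (standard error 0.18, 95% interval 0.25 to 1.04, adjusted p = 0.0587 from limma), short of the threshold, and it passed without KO replicate 3 (0.77, adjusted p = 0.0321) and with a filter at the 60th percentile (adjusted p = 0.0484). The probe set 1427049_s_at, whose suffix marks probes shared by several transcripts, had 2965, 2458 and 2240 on the KO arrays, against 2265, 2619 and 2574 on the wild-type arrays. There the groups overlapped, and the log2 fold change was 0.03 (95% interval -0.22 to 0.28, adjusted p = 0.897). Per array, the log2 value of the first minus that of the second was -0.02, -0.29 and -0.26 in KO and -0.86, -0.59 and -0.96 in wild-type chondrocytes. The groups did not overlap in this difference (0.61, two-sided exact permutation p = 0.10, adjusted p = 0.40 over the 4 genes with such a pair), and 0.10 is the smallest p that 3 arrays against 3 allow. For Ptch1, Gli2 and Gli3 the corresponding differences were -0.15, 0.28 and -0.12, with overlapping groups. Another probe set of Smo, 1442215_at, had signals of 1.98 to 36.0 on KO arrays and 2.26 to 27.8 on wild-type arrays, under the filter.

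**Figure D2:**
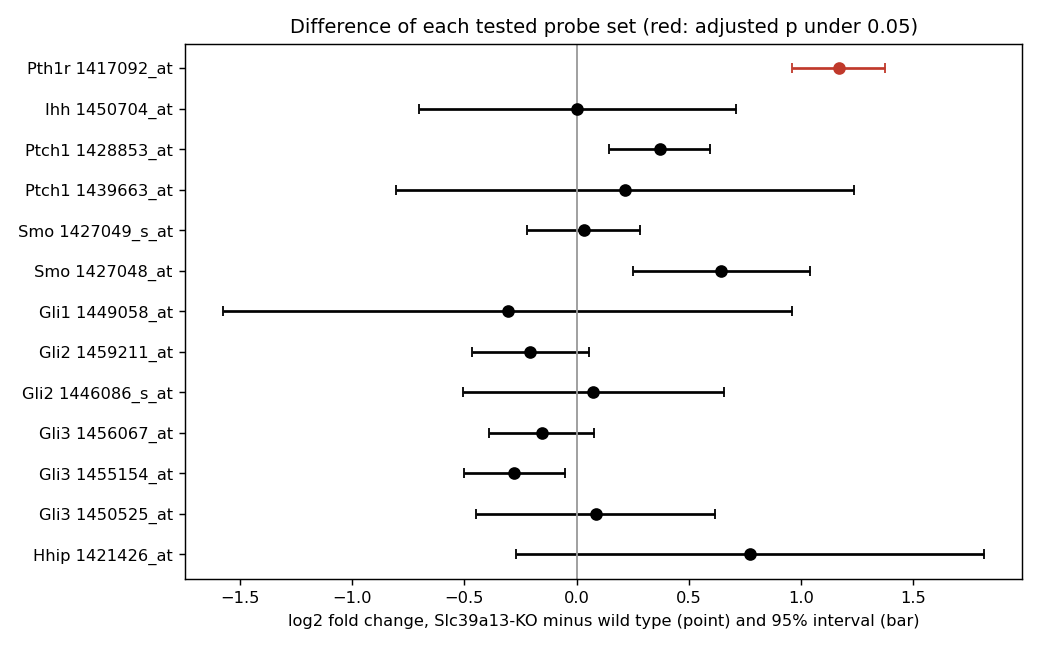
Log2 fold change of each tested member probe set, Slc39a13-KO minus wild type (points), with its 95% interval from limma (bars). The interval lies above 0 for Pth1r (1.17), Ptch1 1428853_at and Smo 1427048_at and below 0 for Gli3 1455154_at, and of these Pth1r alone passed the adjusted threshold (red).

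The Gli genes encode the transcription factors at the end of the pathway, with Gli1 and Gli2 acting mainly as activators and Gli3, once processed, mainly as a repressor. None was called. Gli1, itself a hedgehog target, was dim, with signals of 15.4, 79.2 and 60.1 in KO and 45.6, 75.2 and 50.8 in wild-type chondrocytes. The lowest Gli1 signal was that of KO replicate 1, and its log2 fold change of -0.31 (95% interval -1.57 to 0.96) became 0.27 without that array. The 95% interval of Gli1 thus runs from 0.336-fold to 1.95-fold. For Gli2 the brighter probe set (1459211_at) had 563, 500.2 and 555 on KO arrays, against 576, 684 and 614 on wild-type arrays. The KO arrays were all below the wild-type arrays, with a log2 fold change of -0.21 (95% interval -0.47 to 0.05, adjusted p = 0.328 from limma). The other probe set of Gli2 (1446086_s_at) had 192, 190.4 and 195 in KO and 122, 189 and 259.9 in wild-type chondrocytes, with the spread almost wholly on the wild-type side.

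Gli3 had 3 tested probe sets. The probe set 1455154_at had 662, 741 and 718 on KO arrays, against 824, 904 and 846 on wild-type arrays, again without overlap. Its log2 fold change was -0.28 (standard error 0.10, 95% interval -0.50 to -0.05), and it did not pass (adjusted p = 0.135 from limma). The brightest, 1456067_at, had 1255, 1270.0 and 1029 on KO arrays and 1251, 1345 and 1350.4 on wild-type arrays, with overlap and a log2 fold change of -0.16 (adjusted p = 0.419). The dimmest, 1450525_at, had 255, 157 and 150.5 on KO arrays and 181, 157 and 176 on wild-type arrays, with KO replicate 1 the highest. Its log2 fold change of 0.08 was -0.15 without that array, so the direction of this probe set rests on KO replicate 1.

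Hhip encodes a membrane protein that binds hedgehog ligands and is induced by them. Only 1 of its 4 probe sets (1421426_at) lay above the filter. It had signals of 163, 71.9 and 73.6 on the KO arrays, against 42.6, 95.1 and 35.0 on the wild-type arrays. KO replicate 1 was the highest and the other KO arrays lay within the wild-type range. The log2 fold change was 0.77 (95% interval -0.27 to 1.82, adjusted p = 0.367 from limma). It was 0.41 without KO replicate 1 and 1.15 without wild-type replicate 2. The other 3 had signals of 2.91 to 69.4 on KO arrays and 3.80 to 59.2 on wild-type arrays, and all overlapped.

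Across the 13 tested probe sets, the KO range lay above the wild-type range for 3 (23.1%, against 15.1% of all tested probe sets), which were those of Pth1r, Ptch1 (1428853_at) and Smo (1427048_at). It lay below for 2 (15.4%, against 13.7%), which were those of Gli2 (1459211_at) and Gli3 (1455154_at). In the other 8 the groups overlapped. By the brightest probe set of each of the 8 genes, 1 was higher and none lower, against 3.97% higher and 3.92% lower over all 12715 genes. These calls keep the fit and adjustment over all 23294 probe sets.

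The components of the hedgehog pathway outside the loop were described from a list of 33 genes, of which 29 were tested. Of these, 1 was higher (2 without KO replicate 3), none was lower and 28 did not pass, with a median log2 fold change of 0.18 against 0.01 over all genes. The 1 was Cdon, a co-receptor that helps hedgehog ligands bind Ptch1. Cdon had signals of 2854, 2480 and 3430 on the KO arrays, against 1464, 1834 and 1801 on the wild-type arrays. By limma it was higher by 0.77 on the log2 scale (standard error 0.13, adjusted p = 0.00917), and by 0.68 with median centring, where it did not pass (adjusted p = 0.0987). A dimmer probe set of Cdon had 0.64 and did not pass (adjusted p = 0.209).

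Of 20 genes known to respond to hedgehog signaling, 13 were tested, of which Cdon, which is on both lists, was higher, Ccnd1 was lower and 11 did not pass. Without KO replicate 3 there were 2 higher and 2 lower. The list was not divided by whether hedgehog signaling raises or lowers each gene, so these counts give no direction of signaling. Ccnd1, which encodes cyclin D1 and responds to many mitogens besides hedgehog, had 4045, 4288 and 4000.3 on the KO arrays, against 9394, 10318 and 10597 on the wild-type arrays. Limma gave Ccnd1 a log2 fold change of -1.29 with a standard error of 0.08 (adjusted p = 0.000191), and its 2 other probe sets were also lower, with -0.87 and -1.11. The hedgehog targets among the members themselves, Ptch1, Gli1 and Hhip, had 0.37, -0.31 and 0.77 on their brightest probe sets, and none of these passed.

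On the side of PTHrP, 37 of 41 listed genes of PTH1R signaling were tested, from G proteins to protein kinase A and the HDAC4 and MEF2 effectors, and 3 were higher, 1 was lower and 33 did not pass. Without KO replicate 1 the lower genes numbered 3, and without KO replicate 3 they numbered 2. The median log2 fold change of the list was -0.05, against 0.01 over all genes, of which 3.97% were higher and 3.92% lower. Adcy7, an adenylate cyclase that makes cyclic AMP, had 426, 548 and 477 on the KO arrays, against 204, 166 and 192 on the wild-type arrays (log2 fold change 1.33, standard error 0.16, adjusted p = 0.00222 from limma). Its other probe set had 0.84 with adjusted p = 0.194. Pde3b, a phosphodiesterase that breaks cyclic AMP down, had 1708, 1550 and 1446 on the KO arrays, against 1054, 826 and 997 on the wild-type arrays (0.71, adjusted p = 0.00766). Mef2c, a transcription factor that drives hypertrophy and that PTHrP restrains through HDAC4, had 788, 773 and 796 on the KO arrays, against 536, 517 and 524 on the wild-type arrays (0.57, adjusted p = 0.0100). Mef2c had 4 other tested probe sets, of which 2 passed (0.70 and 0.85) and 2 did not (0.56 and 0.24), and its brightest did not pass without wild-type replicate 2 (adjusted p = 0.0617). With median centring neither Mef2c (0.48, adjusted p = 0.206) nor Pde3b (0.61, adjusted p = 0.0783) passed.

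The 1 lower gene was Prkaca, a catalytic subunit of protein kinase A, with 1473, 1731 and 1831 on KO arrays, against 2814, 2794 and 2669 on wild-type arrays (-0.72, adjusted p = 0.00352 from limma). This probe set has the suffix of probes that may bind other transcripts, and the other probe set of Prkaca had 0.39 (adjusted p = 0.0820), so the gene's direction is uncertain. On the 4 arrays with low Xist alone none of these 4 genes passed, with adjusted p = 0.0519 for Adcy7, 0.0916 for Pde3b, 0.119 for Mef2c and 0.0584 for Prkaca.

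Genes that cyclic AMP signaling is known to induce gave no calls by limma among 15 tested of 18. Their median log2 fold change was -0.08 against 0.01 over all genes. No treatment with PTHrP is described and cyclic AMP was not measured, so signaling through Pth1r was not tested. The lowest p-values were those of Fos and Dusp1. Fos had 2390, 1024 and 742 on the KO arrays, against 661, 607 and 545 on the wild-type arrays, apart but with a spread of over 3-fold within KO (log2 fold change 1.01, adjusted p = 0.107 from limma). Fos passed without KO replicate 3 (1.37, adjusted p = 0.0217), where 1 gene of this list was higher and 1 lower, and had 0.53 without KO replicate 1 (adjusted p = 0.0744). Dusp1, a phosphatase that turns MAP kinases off, had 7746, 8704 and 7288 on the KO arrays, against 9665, 8992 and 9754 on the wild-type arrays (-0.26, adjusted p = 0.105).

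**Figure D3:**
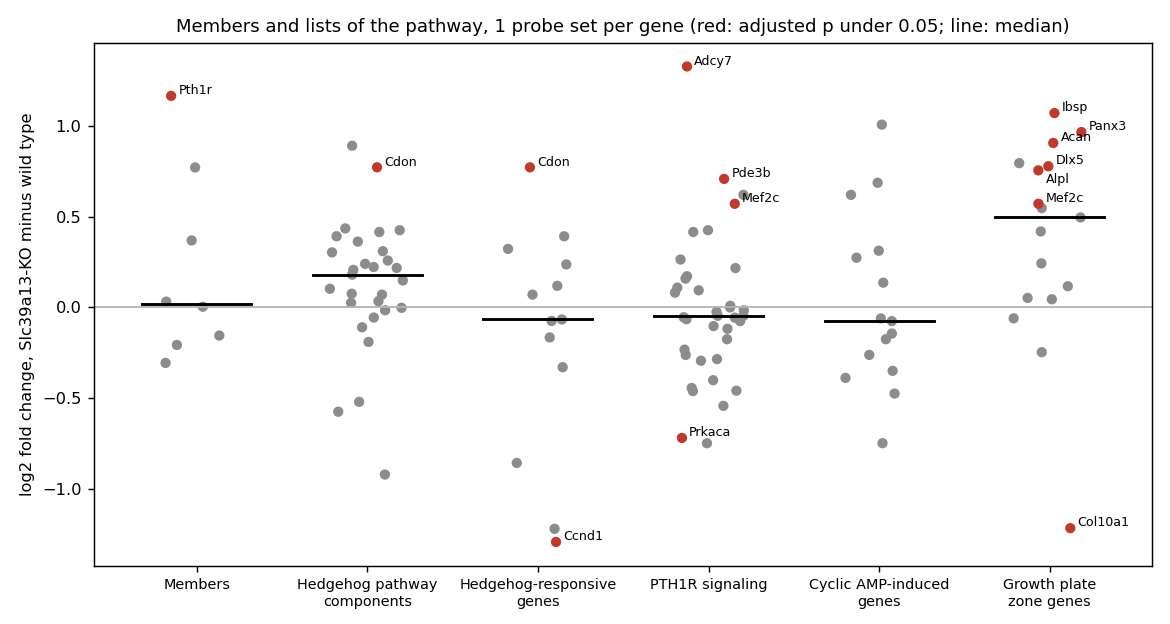
Log2 fold change, Slc39a13-KO minus wild type (y axis), of the 8 members and of the tested genes of 5 lists, 1 point per gene by its brightest tested probe set, with called genes in red and the median as a line. Pth1r stands at 1.17 above the other members, and no cyclic AMP-induced gene is red.

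Among 17 tested genes that mark growth plate zones next to the loop, 6 were higher, 1 was lower and 10 did not pass. Over all genes 3.97% were higher and 3.92% lower. The median log2 fold change was 0.50, against 0.01 over all genes. The count of higher genes was 3 without KO replicate 2, 3 without wild-type replicate 1 and 1 on the 4 arrays with low Xist alone. Those higher included Ibsp, a bone and late cartilage matrix protein (1.07, adjusted p = 0.0198 from limma), Panx3 (0.97, adjusted p = 0.00143) and Acan, the aggrecan gene (0.91, adjusted p = 0.00667). Ibsp did not pass without KO replicate 2 (adjusted p = 0.0516) or wild-type replicate 1 (adjusted p = 0.0695) or with median centring (0.98, adjusted p = 0.0870), nor did its other probe set (0.91, adjusted p = 0.109). For Panx3, 2 further probe sets had 0.70 and 0.04 and did not pass, and the mean of its probe sets had 0.57 (adjusted p = 0.142). The 1 lower gene was Col10a1, the collagen of hypertrophic chondrocytes, with 1663, 1729 and 2478 on KO arrays, against 5061, 5340 and 3344 on wild-type arrays (-1.22, adjusted p = 0.00724). Pth1r was thus higher and Col10a1 lower on the same arrays, while for Ihh, a marker of the prehypertrophic zone, the groups overlapped. Ibsp, Alpl and Mef2c of this list were higher too. Panx3 was also named above for its likeness to Pth1r, so its rise beside Pth1r is no separate evidence.

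**Figure D4:**
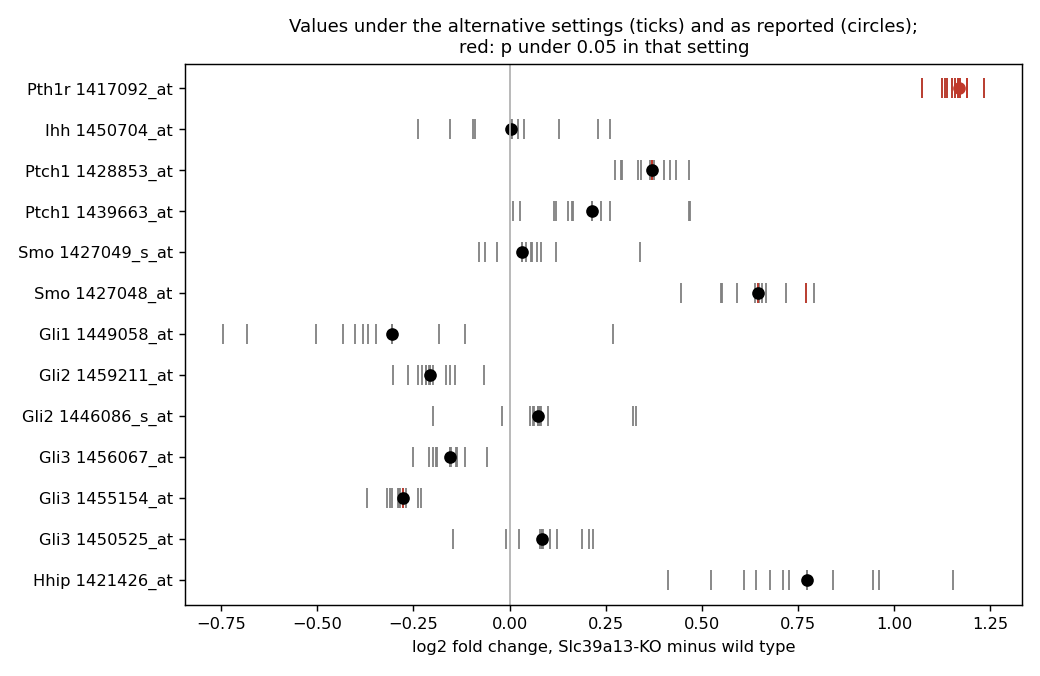
Log2 fold change (x axis) of each tested member probe set as reported (circles) and under the other settings (ticks), in red where p was under 0.05 in that setting. Ticks of Pth1r are all red and lie between 1.07 and 1.23, while those of Ihh, Gli1, Smo 1427049_s_at, Gli2 1446086_s_at and Gli3 1450525_at fall on both sides of 0.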

How the data were processed

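Biotinylated cRNA of total RNA from 6 chondrocyte samples (3 Slc39a13-KO, 3 wild type) was hybridized to Mouse Genome 430 2.0 arrays. The deposited signal intensity of each probe set is, per the labels, from MAS5 (version not stated), while the methods name gcRMA. The intensities are linear with a trimmed mean of 500.003 on every array but quantiles that differ between arrays, unlike the output of gcRMA, and the scaling by the authors was kept.

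Of 45101 probe sets, 34958 have 1 gene symbol, 932 several and 9211 none in the platform annotation, and 64 are controls. Probe sets with 1 symbol, controls apart (34945, of which 34741 matched a RefSeq gene by Entrez identifier), were taken as log2(signal + 7.96), where 7.96 is the 10th percentile of signals. A mean log2 value below the 40th percentile (5.80) kept a probe set out of the tests. Limma 3.58.1 in R 4.3.3 (lmFit, eBayes with a trend) compared KO minus wild type without covariates, with Benjamini-Hochberg adjustment over 23294 probe sets. In lists a gene counts once, by its brightest tested probe set. The design was tested on simulated data, where 40.3% of 1.5-fold, 64.2% of 2-fold and 87.9% of 4-fold changes were recovered. Of 135 calls there, 7 were false. The number of arrays limits the precision.

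The members, lists and tests were chosen with earlier results of these data known. All members are described. From each list up to 4 called genes with the largest change are named, or up to 2 with the lowest p. The 3 genes nearest in profile are named for each called member. Other settings changed 1 choice at a time: the filter, the pseudocount, quantile normalization, median centring, 1 value per gene (brightest or mean), probe sets that may bind several transcripts, the trend, the methods' t-test, a replicate block, sex read from Xist, and each array left out. The 4 arrays with low Xist alone were added after the data were seen. Promoter sequences are from RefSeq (GRCm38.p6).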

Additional observations from a re-analysis of the deposited data

How the results depend on the processing

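Pth1r kept its direction and its call under all 21 settings, with adjusted p = 0.000180 with 1 probe set per gene and up to 0.0479 with the methods' t-test after adjustment. For the 12 other tested member probe sets, 218 of 236 values kept direction and side of the threshold, 6 passed the threshold and 12 changed sign, all of these without passing. The count of members higher was 1, but 3 with a filter at the 60th percentile (Pth1r, Smo and Ptch1), 2 with the brightest probe set per gene (Pth1r and Ptch1) and 2 with the methods' t-test unadjusted, which also gave 1 lower (Gli3). Leaving out 1 array gave 1 to 2 higher, the 2 without Slc39a13-KO replicate 3, and 0 lower. With median centring the log2 fold changes that turned negative were those of Ihh (-0.091, and -0.096 with quantile normalization), Smo 1427049_s_at (-0.063), Gli2 1446086_s_at (-0.021) and Gli3 1450525_at (-0.0100). With 1 array left out, values ran from -0.24 to 0.23 for Ihh (negative without Slc39a13-KO replicate 3 or wild-type replicate 2), from -0.080 to 0.12 for Smo 1427049_s_at (negative without Slc39a13-KO replicate 1 or wild-type replicate 1), from -0.68 to 0.27 for Gli1 (positive without Slc39a13-KO replicate 1), from -0.20 to 0.32 for Gli2 1446086_s_at (negative without wild-type replicate 1) and from -0.15 to 0.22 for Gli3 1450525_at (negative without Slc39a13-KO replicate 1). The cause was not tested.

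Over all tested probe sets, the 802 higher and 785 lower became 131 and 259 with median centring, 47 and 61 without the trend, 45 and 39 with the methods' t-test after adjustment (2326 and 2043 unadjusted) and 90 and 96 on the 4 arrays with low Xist alone. With 1 averaged value per gene they were 462 and 417, against 590 and 594 with the brightest probe set of the same 12715 genes fitted and adjusted alone. Without probe sets that may bind several transcripts 521 were lower. Leaving out 1 array gave 248 to 1074 higher and 188 to 1209 lower, the lowest without wild-type replicate 2 and the highest without Slc39a13-KO replicate 3. Slc39a13, at -2.67, kept its call except with the methods' t-test after adjustment (-2.67, adjusted p = 0.0727). With a replicate block 415 were higher and 422 lower, and Pth1r was still called (1.17, adjusted p = 0.00595). The replicate numbers gave no sign of pairing. Deviations from the group means correlated at 0.033, 0.015 and -0.054 between arrays of the same number, and only number 1 correlated best with its own. Weak correlations on so few arrays cannot exclude a pairing. Called genes named from the hedgehog, PTH1R and growth plate lists were also read without the trend. Of these, Acan, Cdon, Col10a1, Ibsp, Mef2c, Panx3, Pde3b and Prkaca did not pass (adjusted p = 0.0533 for Panx3 to 0.126 for Ibsp by limma), and Ccnd1 and Adcy7 did. Genes named only from the cell type lists were not read this way. For Gli1, Hhip and the second Ptch1 probe set, signals close to the filter limit what can be detected.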
